A study of Mus musculus with 4 samples.

Results

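Wnt ligands, Frizzled receptors and their secreted modulators form the outer, cell-surface part of Wnt signalling. The set described here was chosen by gene symbol from a mouse nuclear RNA-seq comparison. It holds every Wnt, Fzd, Sfrp, Dkk and Rspo gene plus Lrp5, Lrp6, Ror1, Ror2, Ryk, Frzb and Wif1, which comes to 48 of the 25177 gene symbols in the authors' deposited table. The rule uses names and no measured value, though it was set with earlier results of these data known. Where a gene had several transcript rows, the row with the highest mean expression stood for it.

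Wnt proteins are secreted lipid-modified ligands. In the canonical branch a Wnt joins a Frizzled and an Lrp5 or Lrp6 co-receptor, which stabilises beta-catenin and lets it act with TCF and LEF factors in the nucleus. Other branches run through Ror1, Ror2 and Ryk and shape cell polarity and movement. Sfrp proteins, Frzb and Wif1 bind Wnts outside the cell, most Dickkopf proteins bind Lrp5 and Lrp6, and R-spondins slow the removal of Frizzleds from the surface. Fibroblasts are known both to secrete Wnts and to respond to them, and Cdx genes are known targets of Wnt signalling in the embryo.

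The cells were NIH-3T3, an established mouse fibroblast line, engineered to carry the rtTA3G transactivator, an H2B-mCherry reporter and a CDX2 transgene under the doxycycline-dependent TRE3G promoter. CDX2 is a homeobox transcription factor of the intestine and the posterior embryo. The 2 libraries of 1 group came from cells given doxycycline for 6 h, at 500 ng/ml per the extraction protocol (the labels' treatment text has ng per microlitre instead), and the 2 libraries of the other from cells given solvent alone. All 4 libraries come from this line and so carry the transactivator, the reporter and the transgene, all were kept in puromycin, and the sources used here do not say whether the line is 1 clone.

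The authors' deposited table gives 1 comparison of the 2 groups per transcript and no value per library, so levels below are those its mean expression and fold change imply, and no spread between single libraries can be shown. The table's low values imply about 45700000 effective counts per library. Genes with a geometric mean of at least 10 counts per library, or 0.230 CPM (counts per 1000000 counted), were tested, 12355 in all. A gene counts as called where the authors' limma adjusted p is below 0.05. Cdx2 stood at 6.95 ± 0.091 (log2 fold change ± standard error) in the authors' deposited table, and this fixed the sign used here, positive for higher with doxycycline. Fibroblast markers were present in 10 of 10 cases (5.09 to 2287 CPM with solvent, 6.25 to 1903 CPM with doxycycline). By the authors' limma test, 8 of them (80%) were called lower and 0 higher, beside 13.4% and 11.3% of all genes tested. With standard errors multiplied by 2.08, as explained below, 3 were still called lower (Pdgfrb, Prrx1 and Twist2), beside 386 of the 12355 genes tested. Of 6 epithelial, 4 endothelial, 3 blood and 3 neural markers, 1, 1, 1 and 0 reached the floor. Their summed levels went from 1.496 to 0.647, 4.62 to 3.95, 1.09 to 0.931 and 0.0782 to 0.0493 CPM with doxycycline, and Krt18, Cldn4 and Spi1 had no reads. Most of the epithelial sum was Cdh1, which the authors' deposited table calls lower (1.43 to 0.464 CPM, -1.62 ± 0.22), while Krt19, under the floor, carries a call upward there (0.0105 to 0.128 CPM, 3.60 ± 0.62). The part that a change in fibroblast genes at large has in the results below was not tested.

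Of the 48 genes, 14 had no reads in any library, 17 had reads but stayed under the floor, and 17 were tested. The tested genes were 5 Wnts, 7 Frizzleds, both Lrp co-receptors, both Ror receptors and Ryk. All 14 Sfrp, Frzb, Wif1, Dickkopf and R-spondin genes lay under the floor. In such bulk libraries fewer cells of a type and less RNA per cell cannot be told apart. Tested receptors mostly had smaller standard errors than tested ligands, with medians of 0.077 for Frizzleds and 0.065 for other receptors against 0.29. Wnt5a, at 0.075, lay within the range of the receptors. The secreted modulators were hardly measured at all. A gene passes a floor on the geometric mean less easily when 1 group has almost no reads.

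**Figure D1:**
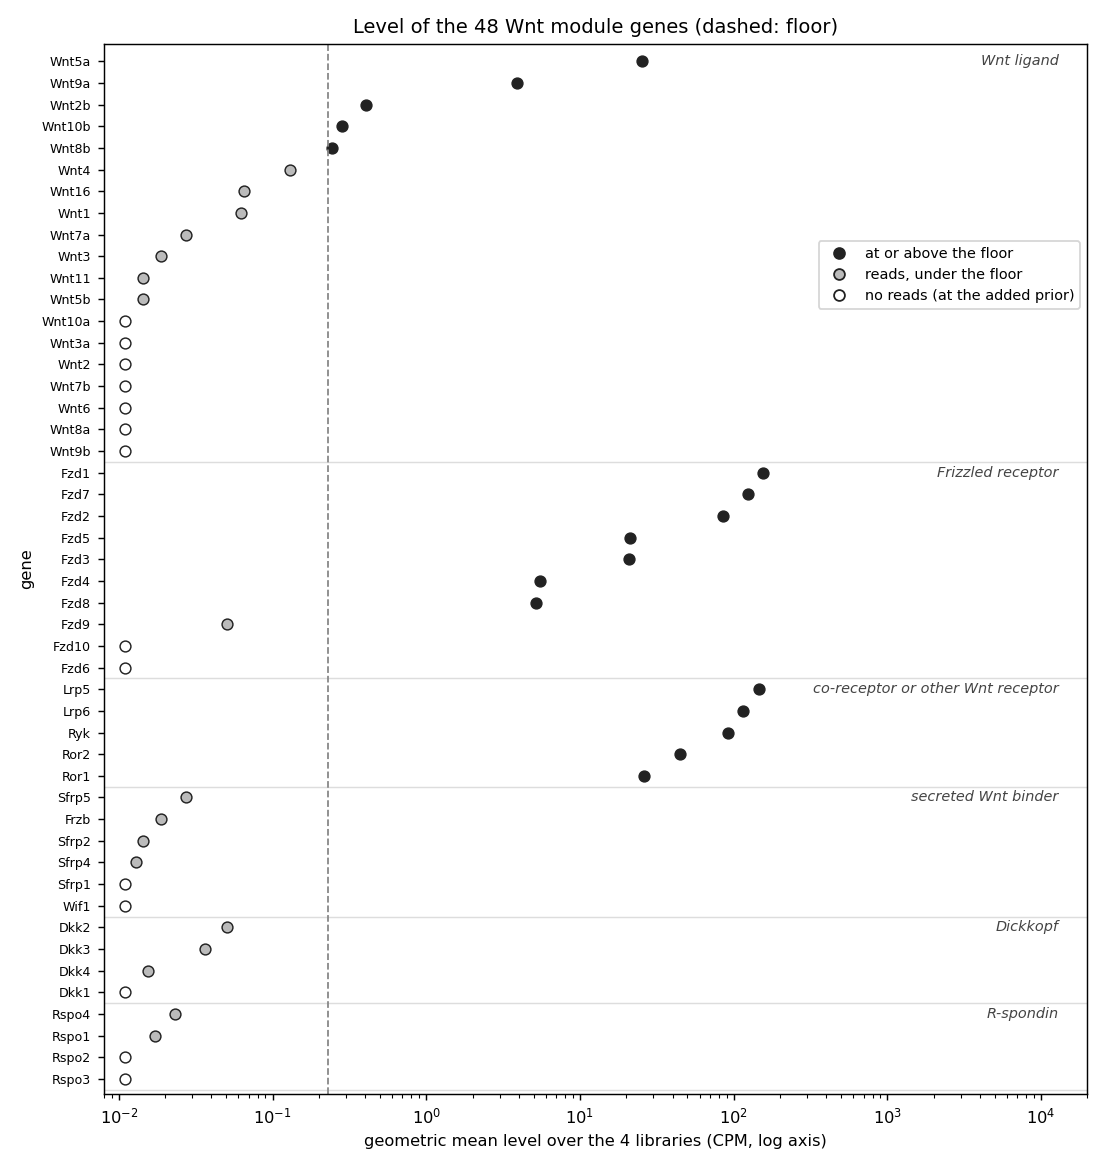
Geometric mean level of each of the 48 genes over the 4 libraries in CPM on a log axis, by role, with the floor of 0.230 CPM as a dashed line. The 5 receptors of the third block and 7 Frizzleds lie right of the floor, and all secreted binders, Dickkopfs and R-spondins lie left of it.

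With doxycycline 1 gene of the set, Fzd5, rose and 4 fell, Fzd4, Ror1, Fzd7 and Fzd1, in the authors' deposited table. The other 12 of the 17 tested were not called. That is 29.4% of the tested genes called, beside 24.7% of all genes tested. By direction, 5.88% of the set rose beside 11.3% of all genes, and 23.5% fell beside 13.4%. The share called is therefore close to the share over all genes. The median log2 fold change of the 17 was -0.047, against -0.0011 over all genes tested.

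**Figure D2:**
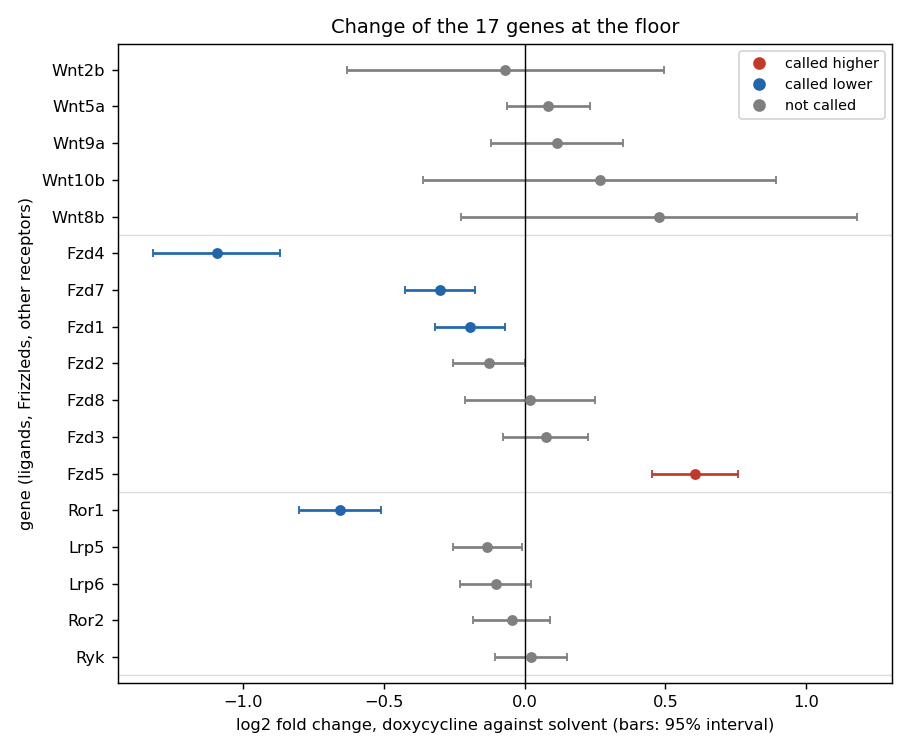
Log2 fold change of the 17 tested genes, doxycycline against solvent, with 95% intervals, in blocks of ligands, Frizzleds and other receptors. Fzd4 and Ror1 lie furthest to the left at -1.09 and -0.66, Fzd5 lies to the right at 0.60, and the intervals of the 5 Wnts all span 0.

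The 250 bases upstream of 4 genes called in the comparison are printed here, because Fzd4, Ror1 and Fzd5 changed most and Fzd1 is the 1 called gene whose window held a searched motif. They are RefSeq sequence of build GRCm38.p6, which shares its coordinates with the mm10 build of the study, and run 5′ to 3′ on each gene's own strand up to the base before its start. The windows are chr7:89404116-89404365 (plus strand) for Fzd4, chr1:64737751-64738000 (minus strand) for Fzd5, chr4:100095541-100095790 (plus strand) for Ror1 and chr5:4758217-4758466 (minus strand) for Fzd1. Capitals mark the letters ATAAA or, on the other strand, TTTAT.
Fzd4: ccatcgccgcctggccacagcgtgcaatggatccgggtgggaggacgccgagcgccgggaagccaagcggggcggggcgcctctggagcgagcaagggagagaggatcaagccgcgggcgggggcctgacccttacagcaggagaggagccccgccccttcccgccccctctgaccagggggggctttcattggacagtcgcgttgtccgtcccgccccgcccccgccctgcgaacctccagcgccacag
Fzd5: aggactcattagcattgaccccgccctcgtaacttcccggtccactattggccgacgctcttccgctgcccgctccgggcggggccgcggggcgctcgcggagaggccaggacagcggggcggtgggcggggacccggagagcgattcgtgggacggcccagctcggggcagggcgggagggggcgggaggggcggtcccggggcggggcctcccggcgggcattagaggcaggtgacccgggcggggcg
Ror1: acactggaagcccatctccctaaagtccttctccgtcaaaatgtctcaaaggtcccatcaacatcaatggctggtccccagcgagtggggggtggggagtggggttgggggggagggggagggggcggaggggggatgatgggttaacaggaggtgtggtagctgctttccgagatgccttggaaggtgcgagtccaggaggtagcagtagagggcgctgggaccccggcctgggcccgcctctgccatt
Fzd1: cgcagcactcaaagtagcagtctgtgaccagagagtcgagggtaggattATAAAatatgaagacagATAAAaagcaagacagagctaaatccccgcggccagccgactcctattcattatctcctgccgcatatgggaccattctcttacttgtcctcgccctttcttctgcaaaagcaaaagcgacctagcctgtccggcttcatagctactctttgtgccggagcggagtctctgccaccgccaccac

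Upstream windows were found for 11 of the 17 tested genes in the RefSeq table. 2 longer forms typical of CDX sites, CAATAAA and CCATAAA, and the TCF and LEF form CTTTGAT were searched on both strands. Of 12305 windows of tested genes, 3.71% held a CDX form and 2.29% the TCF and LEF form. Over 32851 windows of all genes these shares were 6.51% and 3.21%. Over 35 windows of members, tested or not, both were 5.71%. None of the 11 windows of tested members held any of these forms. With so few windows, 0 matches cannot be told apart from such low shares. The inner letters ATAAA, which both CDX forms contain, were searched only after that result. They were in 2 of the 11 windows, those of Fzd1 (201 and 184 bases before the start) and Ryk (220 and 177 bases before), and in 23.8% of the windows of tested genes and 37.3% of all windows. The share of G and C in the windows shown was 72.8% for Fzd4, 76.4% for Fzd5, 62.4% for Ror1 and 51.2% for Fzd1. The median was 60% over windows of tested genes and 52.4% over all windows. A window without a match shows only that these letters are not in those 250 bases.

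Among the ligands, Wnt5a led. Wnt5a (NM_009524, chromosome 14, 28505473 to 28527447), the typical ligand of Ror receptors, stood at 24.7 CPM with solvent and 26.2 CPM with doxycycline, as the authors' deposited table implies. Wnt9a (chromosome 11, 59306930 to 59333552) followed at 3.74 and 4.05 CPM. The other 3 tested ligands, Wnt2b, Wnt10b and Wnt8b, lay between 0.206 and 0.414 CPM in both groups. Wnt8b passed the floor on its mean over the 4 libraries, and its solvent level alone was under it. Per kilobase of exon, the mean level of Wnt5a was 4.05 CPM, that of Wnt9a 1.17 CPM and those of the other 3 were 0.0722 to 0.127 CPM, as the authors' deposited table implies.

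No Wnt ligand among the 5 tested was called by the authors' limma test, and 0 reached an unadjusted p under 0.05. Wnt5a stood at 0.084 ± 0.075 and Wnt9a at 0.11 ± 0.12 on the log2 scale in the authors' deposited table, with 95% intervals of -0.063 to 0.23 and -0.12 to 0.35. The precision was lower for the rare ligands. Wnt10b (0.27 ± 0.32), Wnt2b (-0.069 ± 0.29) and Wnt8b (0.48 ± 0.36) had standard errors above 0.28 in the authors' deposited table, so a change of 1.5-fold in at least 1 direction lies inside all 3 intervals. The second transcript row of Wnt5a, which starts further into the gene, gave 0.11 ± 0.077 in the authors' deposited table. In GENCODE M21 the antisense gene Gm2670 shares 358 of the 7823 exon bases of Wnt5a, and while the library kit keeps strand, the sources used here do not say whether reads were assigned by it.

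The other 14 Wnt genes stayed under the floor. Wnt2, Wnt3a, Wnt6, Wnt7b, Wnt8a, Wnt9b and Wnt10a had no reads in any library. These include Wnt3a, the standard canonical ligand, Wnt2, a ligand of lung mesenchyme, and Wnt7b, a ligand of epithelia. Wnt11 and Wnt5b each held a single count, and Wnt3 held 2 to 4 counts over the 4 libraries together, as the values of the authors' deposited table allow. Wnt1, Wnt4 and Wnt16 had geometric means of 2.37, 5.47 and 2.50 counts per library.

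1 of the 17 genes of the set with reads under the floor carries an adjusted p below the threshold in the authors' deposited table, beside 4.6% of 5345 such genes over the whole table. It is Wnt7a (chromosome 6, 91363981 to 91411353), a ligand known from limb and nervous system patterning, at -2.91 ± 0.70 and an adjusted p of 4.81e-04 in the authors' deposited table. Its geometric mean is 0.757 counts per library, and between 3.5 and 19.5 counts in all 4 libraries together give that mean. The doxycycline level that the authors' deposited table implies, 0.010 CPM, is close to that of a gene without reads. The implied solvent level was 0.0754 CPM, so the reads lay mostly or wholly with solvent. How they were split between the solvent libraries is not given, so this value may rest on 1 of them. Wnt7a is left out of the counts above.

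Frizzleds are the receptors that Wnts bind, and 4 of the 7 tested changed, 1 upward and 3 downward, in the authors' deposited table. Over all genes tested, 11.3% were called higher and 13.4% lower. With standard errors multiplied by 2.08, a robust measure of how widely t varies over tested genes (true changes included), the falls of Fzd1 and Fzd7 are no longer called. Their order by mean level per kilobase of exon was Fzd1 (35.2 CPM), Fzd7 (25.6), Fzd2 (23.6), Fzd5 (3.05), Fzd3 (1.64), Fzd8 (1.55) and Fzd4 (1.49), as the authors' deposited table implies. Fzd1, Fzd2 and Fzd7, which form 1 subfamily by sequence, made up most of the total. Without doxycycline Fzd1 held 38.2% and Fzd7 28.9% of the summed Frizzled level per kilobase. Fzd9 averaged 1.80 counts per library (geometric mean). Fzd6 and Fzd10 had no reads.

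Fzd4 fell most. Fzd4 (NM_008055, chromosome 7, 89404366 to 89410110), known as the receptor of the ligand Norrin in retinal vessels as well as of Wnts, went from 8.01 CPM with solvent to 3.75 CPM with doxycycline, as the authors' deposited table implies. The log2 fold change there was -1.09 ± 0.11 (adjusted p 1.72e-19), a fall of 2.14-fold with a 95% interval of 1.83-fold to 2.50-fold. Only 112 of the 12355 tested genes, or 0.907%, fell further. Its share of the summed Frizzled level per kilobase went from 2.21% to 1.18%.

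Fzd5 was the 1 gene of the set that rose. Fzd5 (NM_022721, chromosome 1, 64730558 to 64737750), a receptor known for its part in intestinal Paneth cells, eye and placenta, went from 17.1 to 26.0 CPM, as the authors' deposited table implies. The log2 fold change there was 0.60 ± 0.078 (adjusted p 6.05e-13), a rise of 1.52-fold with a 95% interval of 1.37-fold to 1.69-fold. Of all tested genes, 317 or 2.57% rose further. Its 2 transcript rows share a span and gave the same value to 2 decimals. The locus Gm38058 on the opposite strand, a transcribed region of unsettled status, covers 1233 of the 6915 exon bases of Fzd5 in GENCODE M21, and reads could be shared if counting ignored strand. Fzd8, the nearest paralogue of Fzd5, stood at 0.017 ± 0.12 in the authors' deposited table. The difference Fzd5 minus Fzd8 was 0.59 ± 0.14, with a 95% interval of 0.31 to 0.86.

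Fzd7 and Fzd1 fell by small amounts from high levels. Fzd7 (chromosome 1, 59482147 to 59486955), a receptor known from stem cells of the gut and from embryonic stem cells, went from 136.7 to 110.9 CPM, a log2 fold change of -0.30 ± 0.064 (adjusted p 3.58e-05) in the authors' deposited table. Fzd1 (chromosome 5, 4753839 to 4758216), another receptor of the canonical branch, went from 164.7 to 143.9 CPM, or -0.19 ± 0.063 (adjusted p 0.0165) in the authors' deposited table. Fzd2, their close relative, stood at -0.13 ± 0.065 (adjusted p 0.232). These 3 values were not told apart from one another. The difference Fzd7 minus Fzd2 was -0.18 ± 0.091 (95% interval -0.36 to 0.0018), Fzd7 minus Fzd1 was -0.11 ± 0.089 (-0.28 to 0.067) and Fzd1 minus Fzd2 was -0.069 ± 0.091 (-0.25 to 0.11).

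Fzd1, Fzd2, Fzd7 and Fzd8 have 1 exon in the table. Over all tested genes, 578 had 1 exon, and their median log2 fold change was -0.083 against 0.0032 for the other 11777 in the authors' deposited table. Of the 1-exon genes 2.42% were called higher and 13.3% lower, beside 11.7% and 13.4% of the others. The part of this difference in the small falls of Fzd1 and Fzd7 was not tested.

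For Fzd3, a receptor of axon guidance and cell polarity, the authors' deposited table gives 0.075 ± 0.077 (adjusted p 0.755) and implies levels of 20.3 and 21.4 CPM. Summed over the 10 Frizzleds, the level per kilobase went from 98.5 to 86.6 CPM, which is 12.1% lower with doxycycline. No error goes with this sum, and most of it lay in Fzd1, Fzd7 and Fzd2. Fzd2 was not called, and the calls of Fzd1 and Fzd7 were lost with widened standard errors. The rise of Fzd5 took its share from 2.51% to 4.34%, while the shares of Fzd1, Fzd2 and Fzd7 became 38.0%, 26.1% and 26.6%. By nuclear RNA per kilobase of exon, the same 3 Frizzled genes thus led in both groups. All 3 have 1 exon, and whether such levels compare with those of genes with more exons was not tested.

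**Figure D3:**
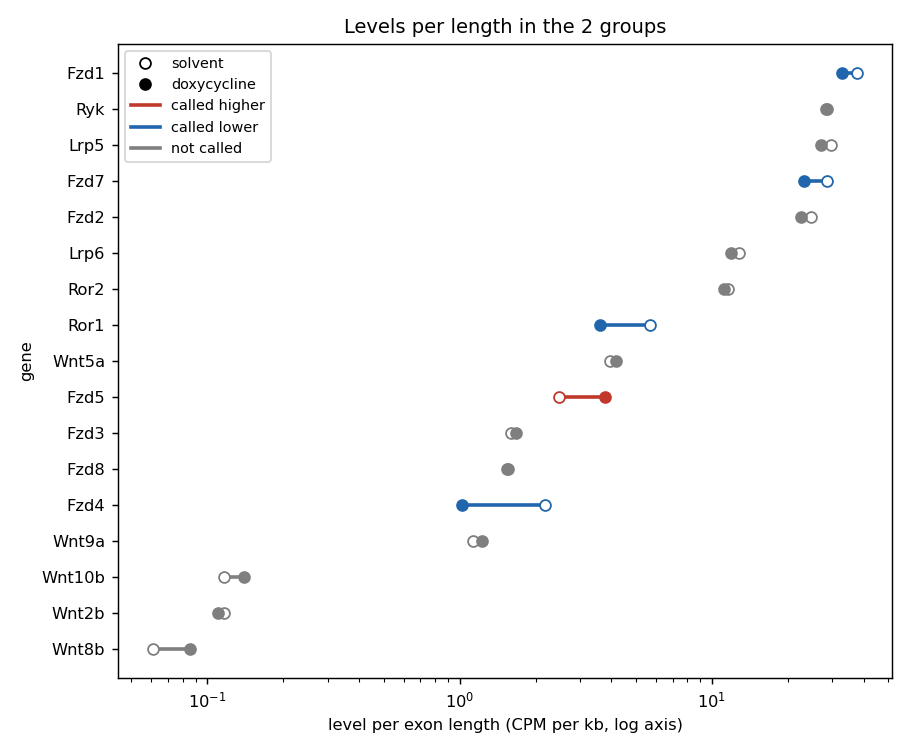
Level per kilobase of exon (CPM per kb, log axis) of the 17 tested genes with solvent (open circles) and with doxycycline (filled circles), as the authors' deposited table implies, without error bars. Fzd4 moves from 2.18 to 1.02 and Ror1 from 5.67 to 3.59, while Fzd5 moves from 2.47 to 3.76.

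The canonical co-receptors Lrp5 and Lrp6 were abundant and not called. Lrp5 (chromosome 19, 3584825 to 3686564) had implied levels of 152.1 and 138.8 CPM and a log2 fold change of -0.13 ± 0.063 (unadjusted p 0.0360, adjusted p 0.170) in the authors' deposited table. Lrp6 (chromosome 6, 134446478 to 134566913) had 119.2 and 111.0 CPM and the authors' deposited table gives -0.10 ± 0.064 (adjusted p 0.369). The difference Lrp5 minus Lrp6 was -0.029 ± 0.090, with a 95% interval of -0.21 to 0.15.

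Of the receptors outside the Frizzled family, Ror1 fell. Ror1 (NM_013845, chromosome 4, 100095791 to 100444806), a receptor tyrosine kinase-like protein that binds Wnt5a, went from 32.8 CPM with solvent to 20.8 CPM with doxycycline, as the authors' deposited table implies. The log2 fold change there was -0.66 ± 0.074 (adjusted p 6.60e-17), a fall of 1.58-fold with a 95% interval of 1.43-fold to 1.74-fold. Of all tested genes, 2.87% fell further. A shorter transcript row that ends inside the gene, with a mean level of 5.82 CPM, was lower too in the authors' deposited table, by -0.56 ± 0.11 (adjusted p 6.94e-06).

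Its paralogue Ror2 (chromosome 13, 53109317 to 53286124), the other Wnt5a receptor of this kind, stood at -0.047 ± 0.070 (adjusted p 0.873) with implied levels of 45.7 and 44.3 CPM in the authors' deposited table. The difference Ror1 minus Ror2 was -0.61 ± 0.10, with a 95% interval of -0.81 to -0.41. Of the 6 differences between paralogues given here, whose intervals are not adjusted for their number, those of Ror1 and Ror2 and of Fzd5 and Fzd8 are the 2 whose interval lies off 0. Ryk (chromosome 9, 102834920 to 102908307), an atypical kinase receptor, stood at 0.021 ± 0.065 in the authors' deposited table, and its 3 transcript rows lay between 0.021 and 0.024.

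The secreted modulators were nearly silent. Sfrp1, Wif1, Dkk1, Rspo2 and Rspo3 had no reads in any library. Sfrp2 held a single count and Sfrp4 0.5 counts, while Frzb held 2 to 4, Dkk4 1 to 1.5 and Rspo1 1.5 to 2.5 counts over the 4 libraries together. Dkk2 and Dkk3 had geometric means of 1.81 and 1.15 counts per library. None of the 14 was called in the authors' deposited table. The smallest p-values were those of Rspo4 (1.95 ± 0.75, unadjusted p 0.00891, adjusted p 0.0572), resting on 3 to 9.5 counts in all, and Sfrp5 (1.40 ± 0.70, adjusted p 0.208), on 3.5 to 19.5, in the authors' deposited table.

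Neighbouring genes give the setting of Fzd4, Fzd5, Fzd1 and Ror1. Of the nearest tested genes to Fzd4, Tmem135 at 65.6 kb (-0.24 ± 0.078) and Prss23 at 97.7 kb (-0.51 ± 0.066) were also called lower in the authors' deposited table. Beside Fzd5, Ccnyl1 at 4.92 kb was not called (-0.11 ± 0.076) and Plekhm3 at 51.4 kb was called higher (0.48 ± 0.088) in the authors' deposited table. Beside Fzd1, Cdk14 at 45.2 kb was called lower (-0.19 ± 0.064) and Mterf1b at 556.2 kb was not (-0.043 ± 0.26). The neighbours of Ror1, Pgm1 and Cachd1, were not called in the authors' deposited table.

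The rest of the pathway was described with 6 lists of 124 genes, of which 87 were tested. By the calls of the authors' deposited table, 14 of them rose and 12 fell, which is 29.9% beside 24.7% over all genes. The first list took genes of Wnt secretion and release. Of 11 tested, 0 were called by the authors' limma test and 1 had an unadjusted p under 0.05. It was Snx3, a sorting nexin of the Wntless recycling route (0.17 ± 0.069, adjusted p 0.0725). The Wnt carrier gene Wls (-0.099 ± 0.065, 85.0 CPM), the acyltransferase gene Porcn (0.46 ± 0.28) and the Wnt-cleaving protease gene Trabd2b (-0.14 ± 0.086) were not called either in the authors' deposited table. The row used for Porcn, at a mean of 0.394 CPM near the floor of 0.230 CPM, is a noncoding transcript entry.

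Other surface and extracellular regulators had 4 falls and 0 rises among 12 tested in the authors' deposited table, with a median of -0.16. By share, 33.3% were called lower and 0% higher, beside 13.4% and 11.3% of all genes tested. Znrf3, an E3 ligase that removes Frizzleds from the surface, fell (-0.39 ± 0.070), as did Adgra2, an adhesion receptor that serves Wnt7 signals (-0.33 ± 0.062). The R-spondin receptor gene Lgr4 (-0.22 ± 0.068) and the Wnt inhibitor gene Apcdd1 (-0.20 ± 0.070) also fell in the authors' deposited table. Lgr5 and Rnf43 stayed under the floor.

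The cytoplasmic relay had 5 rises and 1 fall among 24 tested in the authors' deposited table, with a median of 0.081. That is 25% called, close to the 24.7% of all genes. By direction, 20.8% were higher and 4.17% lower, beside 11.3% and 13.4% of all genes tested. Dact1, a Dishevelled-binding regulator (1.08 ± 0.18), Frat2, a binder of Gsk3 (0.49 ± 0.12), and the casein kinase gene Csnk1e (0.32 ± 0.070) rose, and Dact3 fell (-0.48 ± 0.087) in the authors' deposited table. Ctnnb1, which encodes beta-catenin itself, stood at -0.090 ± 0.060 (adjusted p 0.438).

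Nuclear factors had 7 rises and 1 fall among 18 tested in the authors' deposited table, with a median of 0.091. By share, 38.9% were called higher and 5.56% lower, beside 11.3% and 13.4% of all genes tested. Tcf7l2, a TCF factor (0.66 ± 0.069), Lef1 (0.61 ± 0.098) and the corepressor gene Tle2 (0.60 ± 0.13) rose, and the beta-catenin coactivator gene Bcl9l fell (-0.49 ± 0.064). Among 7 feedback and target genes, Axin2, a negative regulator induced by the canonical branch (1.26 ± 0.15), rose, and Myc (-1.30 ± 0.065), Jag1 (-0.45 ± 0.071) and Ccnd1 (-0.16 ± 0.059) fell in the authors' deposited table. These target genes thus moved in both directions, with 14.3% called higher and 42.9% lower, beside the same 11.3% and 13.4% of all genes.

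Planar cell polarity genes had 1 rise and 3 falls among 15 tested in the authors' deposited table. In all 26.7% were called, close to the 24.7% of all genes tested. By direction, 6.67% were higher and 20% lower, beside 11.3% and 13.4% of all genes tested. Daam1, a formin downstream of Dishevelled (-0.66 ± 0.068), and the ubiquitin ligase genes Smurf2 (-0.44 ± 0.065) and Smurf1 (-0.44 ± 0.066) fell, while Intu, a gene of cilium formation (0.41 ± 0.12), rose. Once every standard error was multiplied by 2.08 in this way, the calls left in the 6 lists were those of Tcf7l2 and Bcl9l among nuclear factors, Axin2 and Myc among target genes, and Daam1, Smurf1 and Smurf2 among polarity genes, and the other 3 lists had 0.

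**Figure D4:**
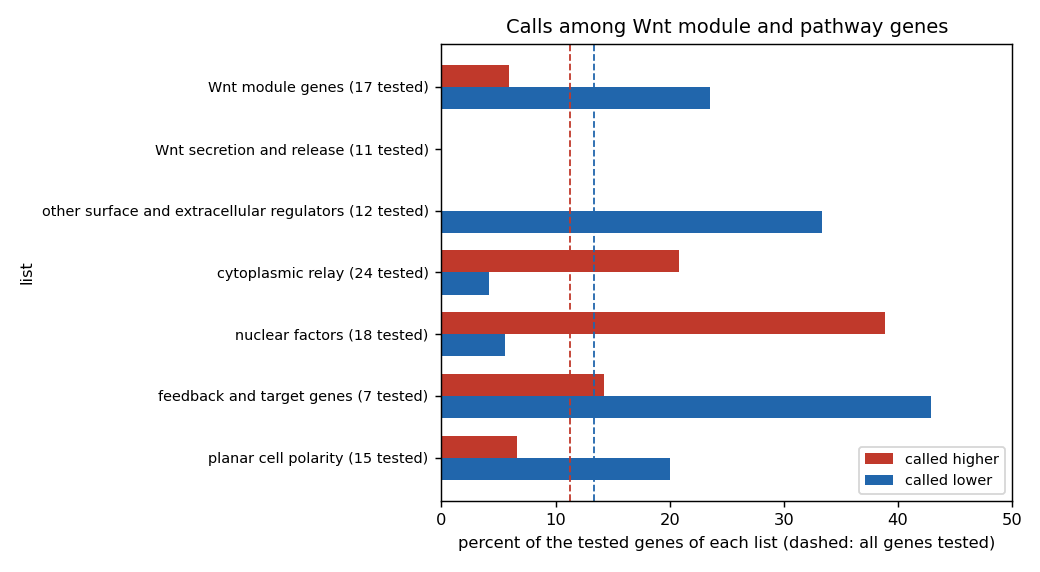
Percent of the tested genes called higher (red) and lower (blue) in the Wnt module and in each of 6 pathway lists, with the number tested, and the shares over all genes tested (11.3% and 13.4%) as dashed lines. Lower calls are above the blue line in the Wnt module, the surface regulators, the feedback and target genes and planar cell polarity, and higher calls are above the red line in the cytoplasmic relay, the nuclear factors and, by 1 gene of 7, the feedback and target genes.

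The calls rest on a spread that the authors' model pooled over transcripts, since a gene's level and fold together predict 99.2% of the variation in its log standard error. A gene's own scatter between libraries therefore hardly enters its p-value. With that same factor of 2.08 applied, Fzd4 and Ror1 were still called lower and Fzd5 higher, while Fzd7 (adjusted p 0.241) and Fzd1 (adjusted p 0.694) were not. With the median of 79 ribosomal protein genes set to 0, Fzd1 was no longer called (-0.15, adjusted p 0.0557). These alternatives adjust p over the tested genes only, and under that adjustment without the new scaling Fzd1 had an adjusted p of 0.00993. Rises made up 45.7% of all called genes with the authors' adjusted p, 46.4% with p adjusted over the tested genes, and 59.8% once the ribosomal median was set to 0 as well.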

How the data were processed

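Nuclear RNA of 2 doxycycline and 2 solvent libraries was compared by the submitters, and sample titles gave the groups. Whether replicates were separate cultures is not stated, and the p-values may then reflect technical spread alone. The submitters' processing notes list the build mm10 and, without order or role, limma, edgeR, HOMER 4.10, Picard, SAMtools 1.10 and STAR 2.7.1a.

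The deposited table of 40739 transcript rows gives, per the file headers, a moderated t score, p-values raw and adjusted, mean log2 expression and the log2 fold change, with other columns for start, end and exon length in bases. The p-values match a t distribution with 44446 degrees of freedom. In all 12702 rows of lowest expression the mean is that of counts in steps of 0.5 with 0.5 added per library (tolerance 0.01 on the product), and rows without reads share a log2 fold change of -0.21.

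Dividing the fold change by t gave each standard error, 95% intervals assume normal errors, and group levels are the mean expression minus or plus 0.5 times the log2 fold change. The planned use of the authors' limma test was kept, since no value per library is in the table. Differences between paralogues take their errors as independent. Older symbols were matched through RefSeq synonyms. Genes were named by a rule that takes every member and, of each pathway list, the 4 tested genes with the smallest p. Genes named beyond it (neighbours, Lgr5, Rnf43 and Ctnnb1, and markers at 0) were chosen after their values were seen. The members, lists and rules were chosen with earlier results of these data known. Python 3.11.15, pandas 2.3.3, numpy 2.4.6 and scipy 1.17.1 were used.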

Additional observations from a re-analysis of the deposited data

How the results depend on the processing

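Across the alternatives to floor, transcript row, adjustment, scaling and threshold, 1 gene of the set was called higher in each setting but 1, and 2 to 5 were called lower. With widened standard errors 2 genes were called lower (Fzd4 and Ror1), and with a change of at least 1.5-fold required 2 were lower as well (the same 2 genes). Without the genes that overlap another gene in GENCODE M21, an alternative chosen after seeing the data, 0 were higher and 3 were lower, since Fzd5 and Ror1 are among the genes left out. The loci that overlap Ror1 share 0 of its 5762 exon bases, while Gm38058 shares 1233 of the 6915 of Fzd5. Over all genes tested, 190 were higher and 386 lower with widened standard errors, and 300 and 398 at 1.5-fold or more. Without a floor Wnt7a was the 1 gene added to those called lower. Fzd1 was no longer called at an adjusted p under 0.01 (0.0165). Fold changes of the 17 tested genes kept their sign wherever they were called. No paired analysis was possible because the deposited table holds no value per library, and for the same reason no library was left out in turn. Standard errors were widest for the rare ligands, at 0.29 to 0.36 for Wnt2b, Wnt10b and Wnt8b.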
